A study of Mus musculus with 80 samples.

Results

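Axon guidance ligands and receptors are the secreted and membrane-bound cues, and the receptors that read them, by which growing axons are attracted or repelled. Class 3 semaphorins signal through neuropilins and A-type plexins, most membrane semaphorins through plexins directly, ephrins through Eph receptor tyrosine kinases, netrins through Dcc and Unc5 receptors, Slits through Robos, and netrin-G proteins through synaptic partners. In the adult brain many of these genes remain expressed and are known for roles in synapse formation and plasticity. The members described here were all genes of the filtered expression table whose symbol starts with the name of 1 of these families. The rule reads symbols and not differences between groups, but the table holds only genes that passed a filter on level. They were 63 of the 13016 genes tested, out of 27179 genes counted. By role they comprised 10 secreted ligands, 22 membrane ligands and 30 receptors. The remaining gene, Unc50, was taken by its symbol alone. It encodes a membrane protein of the endoplasmic reticulum and Golgi and is no netrin receptor. Ntn4, Plxnc1 and Sema3a passed the level filter but carry no symbol in that table, and Efna4, Epha1, Epha2 and Unc5cl did not pass it, so these genes are not analysed here.

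Messenger RNA was sequenced from the hypothalamus, cerebellum, hippocampus, neocortex and amygdala of C57BL/6 female mice (C57BL/6J in the study's methods). The 8 virgin females were age-matched to 8 primiparous females, which had been penned with a male from the age of 8 weeks, had raised 1 litter, and were sampled 3 weeks after weaning according to the labels, whereas the study's methods give a longer interval. Virgin females lived in groups and had no contact with males, so that pregnancy, rearing and mating experience cannot be told apart. The hypothalamus and neocortex had 8 libraries per state, and the cerebellum, hippocampus and amygdala had 7 virgin and 8 primiparous libraries. Only the left side of each region was used, except for the hypothalamus. Total counts ranged from 7959192 to 37871854 per library, and levels are given as CPM, that is counts scaled to the same total in every library. No gene was targeted. In such bulk tissue fewer cells of a type and less RNA per cell cannot be told apart. The p-values of state within a region measure the spread between these animals. The main tests of regions and of interactions had no term for the animal. Libraries of the same animal from different regions were treated there as independent.

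The tissue labels were read against marker genes, and all 10 hypothalamus markers and all 8 cerebellum markers were highest in their own region, as were 5 of 6 hippocampus and 5 of 6 neocortex markers. Only 2 of 5 amygdala markers were. The summed level of the 5 was higher in every hypothalamus library (361 to 453 CPM) than in any amygdala library (185 to 273 CPM). This list thus did not mark out the amygdala libraries. The hippocampus library of primiparous animal 413 held 547 CPM of cerebellum markers. In it 6 members lay above the range of the other hippocampus libraries, 8 below it and 49 within it. Among them Ntn1 was at 16.3 CPM (others at most 12.8) and Nrp1 at 97.2 (others at least 102). In the neocortex, markers of the olfactory bulb summed to 9.19, 11.9 and 37.3 CPM in animals 413, 425 and 405 and to between 111 and 366 CPM in the other 13 libraries. The series of animal numbers was uneven between states: 3-digit numbers were carried by 2 virgin and 7 primiparous females, and 4-digit numbers by 6 virgin females and 1 primiparous female.

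Promoter sequence is shown for 1 member per region, the gene with the largest difference in favour of a region in which it also had its highest level, among the genes with a single entry on the RefSeq promoter list (GRCm38.p6). Each run holds the 250 bases before the annotated start, 5′ to 3′ on the gene's strand, with the GC box GGGCGG, on either strand, in capitals. Adjoining or overlapping boxes form 1 capital run. Slit2 lies on the plus strand at chr5:47982905-47983154, Epha8 on the minus strand at chr4:136956817-136957066, Epha6 on the minus strand at chr16:60605532-60605781, Robo3 on the minus strand at chr9:37433176-37433425 and Plxnd1 on the minus strand at chr6:115995006-115995255.
Slit2: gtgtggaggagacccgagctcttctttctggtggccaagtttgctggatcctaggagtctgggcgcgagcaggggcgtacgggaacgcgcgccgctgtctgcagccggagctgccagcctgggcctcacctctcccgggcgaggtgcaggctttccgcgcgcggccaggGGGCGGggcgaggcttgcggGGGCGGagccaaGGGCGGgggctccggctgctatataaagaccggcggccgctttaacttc
Epha8: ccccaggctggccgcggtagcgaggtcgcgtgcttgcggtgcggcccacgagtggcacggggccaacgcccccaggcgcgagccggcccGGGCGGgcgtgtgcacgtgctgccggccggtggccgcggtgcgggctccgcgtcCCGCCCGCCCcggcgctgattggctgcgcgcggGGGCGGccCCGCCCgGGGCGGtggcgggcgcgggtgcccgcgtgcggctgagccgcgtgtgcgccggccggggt
Epha6: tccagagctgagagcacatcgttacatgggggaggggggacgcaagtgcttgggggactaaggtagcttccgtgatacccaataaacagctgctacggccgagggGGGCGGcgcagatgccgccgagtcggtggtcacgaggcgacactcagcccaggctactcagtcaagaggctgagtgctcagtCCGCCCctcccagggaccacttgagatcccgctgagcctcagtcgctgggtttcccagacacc
Robo3: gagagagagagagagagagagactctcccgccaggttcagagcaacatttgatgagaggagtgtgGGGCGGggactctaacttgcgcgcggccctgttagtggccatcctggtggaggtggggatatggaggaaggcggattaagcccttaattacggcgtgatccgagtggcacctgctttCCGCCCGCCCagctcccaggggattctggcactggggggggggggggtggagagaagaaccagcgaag
Plxnd1: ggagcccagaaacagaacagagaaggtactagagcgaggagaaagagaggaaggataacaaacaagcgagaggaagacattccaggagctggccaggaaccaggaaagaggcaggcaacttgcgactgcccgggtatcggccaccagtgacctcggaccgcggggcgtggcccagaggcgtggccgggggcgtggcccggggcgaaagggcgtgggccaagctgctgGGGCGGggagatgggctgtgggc
The GC box occurred 3 times in the Slit2 window, 6 times at Epha8, 2 times at Epha6, 3 times at Robo3 and 1 time at Plxnd1. Over all 32851 promoter windows of that length, 32.7% held it, against 49 of the 69 windows of members, which belong to 53 genes. The TATA motif TATAAA was present in 12.4% of all windows and, among the 5 shown, in Slit2 alone. The E-box CACGTG was present in 6.02% of all windows and, among the 5 shown, in Epha8 alone. CpG dinucleotides numbered a median of 16 in the 69 windows of members and a median of 6 in all windows. Epha8, whose level was highest in the cerebellum, had 46 CpG dinucleotides, the most of any member's window. These matches describe letters and were not tested as binding sites.

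The question of where in the brain each guidance gene is expressed was addressed first. Guidance genes differed more between regions than genes at large. The ratio of the highest to the lowest regional mean had a median of 1.91 on the log2 scale over the 63 members and of 0.76 over all 13016 genes, with 0.5 CPM added to both means. It was at least 2-fold for 52 of 63 members, against 37.4% of all genes. Because a gene could enter the table through the 1 region in which it is high, the comparison was repeated on genes with a mean of at least 5 CPM in every region. Of these 52 members 42 still differed at least 2-fold, or 80.8%, against 28.8% of all such genes.

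**Figure D1:**
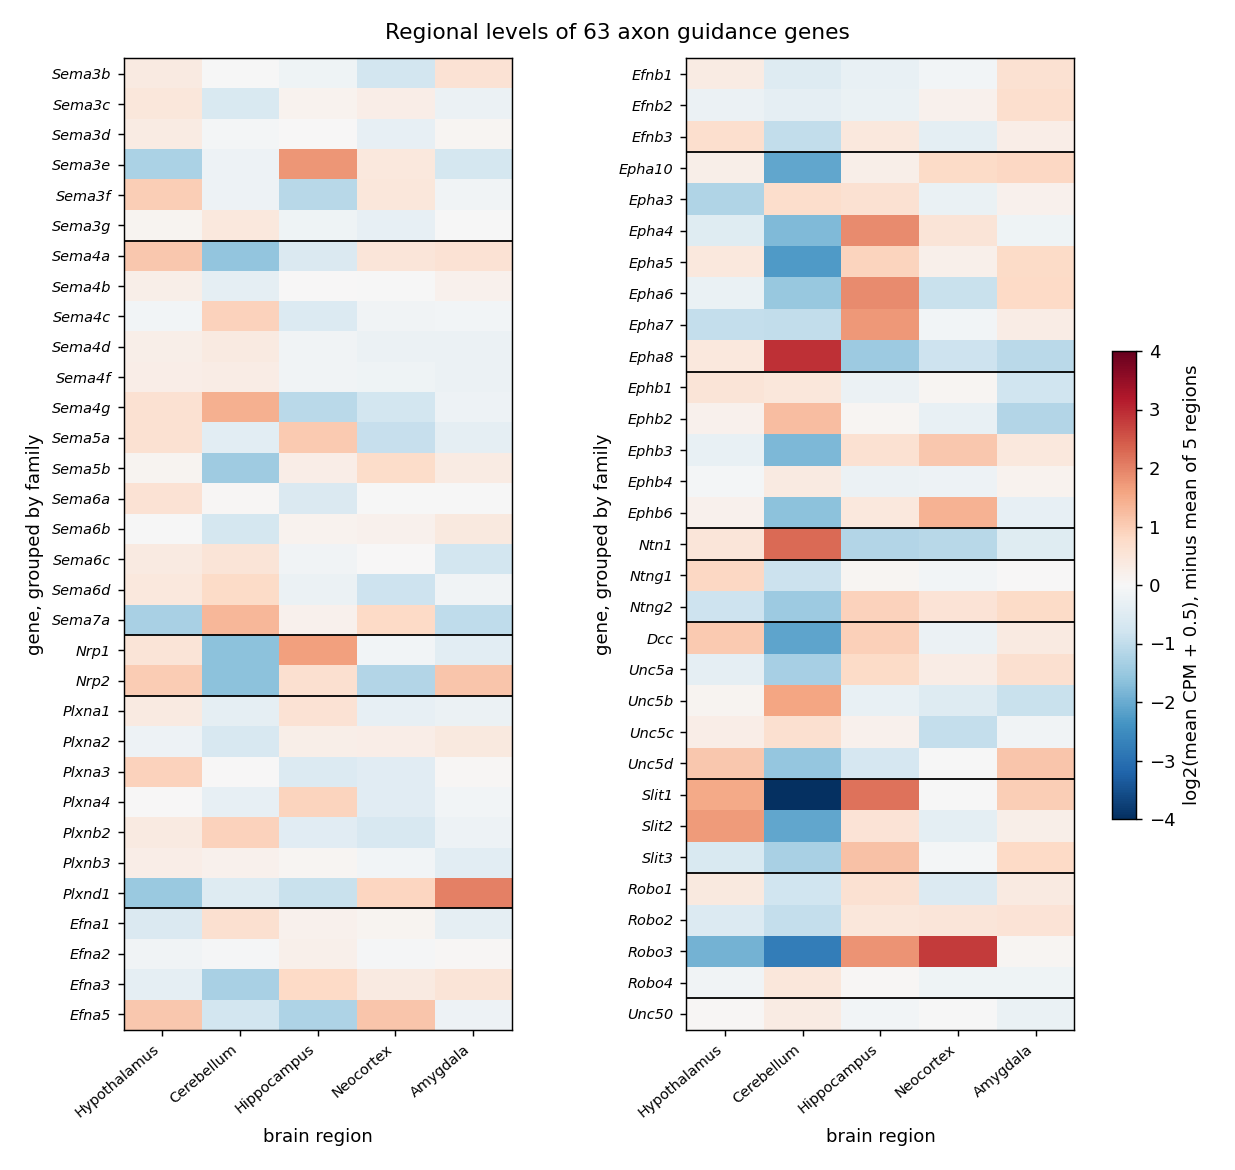
Regional levels of the 63 genes. Each row is a gene and each column a brain region. The colour gives log2(mean CPM + 0.5) of the region minus the mean of the 5 regions, and ends at 4 on either side. Black lines separate the families. The cerebellum column holds both the deepest blue (Slit1) and the deepest red (Epha8), and Robo3 stands out in the neocortex and hippocampus.

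A member was called regional when its level in a region differed from the mean of the other 4 regions at least 2-fold and its p, adjusted over all genes, was under 0.05 (Benjamini-Hochberg, quasi-likelihood F-test of edgeR). By this rule 33 members were called in the cerebellum, 8 higher and 25 lower, against 19.9% of all genes, of which 7.55% were higher and 12.4% lower. In the hippocampus 15 were higher and 6 lower, against 7.97% of all genes (4.56% higher, 3.41% lower). In the hypothalamus 9 were higher and 7 lower, with 12.3% of all genes called (6.58% higher, 5.76% lower). The neocortex had 7 higher and 8 lower with 8.04% called (4.28% higher, 3.76% lower), and the amygdala 9 higher and 4 lower with 6.96% called (5.05% higher, 1.91% lower). The cerebellum was the region of lowest level for 31 members, or 49.2%, compared with 24.8% of all genes. The hippocampus was the region of highest level for 16 members, or 25.4%, compared with 10.2% of all genes. In the hippocampus 9 of 30 receptors were called higher, and in the cerebellum 15 of 30 receptors were called lower.

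Slits are secreted repellents, and the 3 Slit genes had separate regional patterns. Slit1 ranged from 211 to 297 CPM in the hippocampus (median 255), from 124 to 207 in the hypothalamus (median 155), from 87.5 to 138 in the amygdala (median 110) and from 31.5 to 71.1 in the neocortex (median 55.9), but from 0.915 to 2.36 in the cerebellum (median 1.63). No cerebellum library came near the range of another region. Its log2 difference from the other regions was 2.90 ± 0.05 (SE) in the hippocampus (adjusted p = 7.51e-59, edgeR), 1.89 ± 0.06 in the hypothalamus, 1.39 ± 0.06 in the amygdala and -6.30 ± 0.10 in the cerebellum (adjusted p = 5.65e-64, edgeR). Slit2 ranged from 74.7 to 115 CPM in the hypothalamus (median 94.1) and reached at most 55.8 in the hippocampus, 46.2 in the amygdala, 31.4 in the neocortex and 11.7 in the cerebellum. The hypothalamus libraries thus lay above all 61 others. The hypothalamus exceeded the hippocampus, next in order, by 1.02 ± 0.10 on the log2 scale (adjusted p = 9.18e-15, edgeR). Slit3 was highest in the hippocampus, with 63.3 ± 6.04 CPM (SD, n = 15), and lowest in the cerebellum, with 10.96 ± 1.67. Per kilobase of exon, Slit1 was the most abundant of the 3 in the hypothalamus, with 27.0 CPM per kb against 3.63 for Slit2 and 3.00 for Slit3. In the cerebellum Slit3 was, with 1.81 CPM per kb against 0.289 for Slit1 and 0.244 for Slit2.

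Robos are the Slit receptors. Robo3, a divergent member known for its part in midline crossing, had the widest regional range of the receptors. It ranged from 25.4 to 83.2 CPM in the neocortex (median 47.9), from 15.2 to 32.4 in the hippocampus (median 25.4), from 3.46 to 14.4 in the amygdala (median 6.03), from 0.523 to 3.12 in the hypothalamus (median 1.12) and from 0 to 1.09 in the cerebellum (median 0.563). The log2 difference from the other regions was 3.9 ± 0.11 in the neocortex, 2.66 ± 0.12 in the hippocampus, -2.61 ± 0.18 in the hypothalamus and -4.39 ± 0.21 in the cerebellum. The neocortex and hippocampus were each above every library of the 3 other regions and overlapped with each other. Their means nevertheless differed, by 0.99 ± 0.15 on the log2 scale (adjusted p = 1.96e-08, edgeR). The 3 neocortex libraries poor in olfactory bulb markers had 53.1 to 66.1 CPM of Robo3, within the range of the other 13. Robo2 did not differ detectably among the amygdala (103 ± 19.4 CPM, SD, n = 15), neocortex (98.6 ± 19.4, n = 16) and hippocampus (96.5 ± 8.39, n = 15). It was lower in the hypothalamus (47.4 ± 5.39) and cerebellum (36.1 ± 3.69). Robo1 was highest in the hippocampus, with 64.6 ± 7.28 CPM. The log2 ratio of Robo1 to Robo2 per kilobase was 0.26 ± 0.14 (SD, n = 16) in the hypothalamus, where Robo1 was the more abundant in all 16 libraries, and -1.77 ± 0.08 (n = 16) in the neocortex, where Robo2 was. Robo4, a receptor known from endothelium, stayed between 0.639 and 10.7 CPM in all libraries, and no pair of neighbours in its regional order passed the test.

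**Figure D2:**
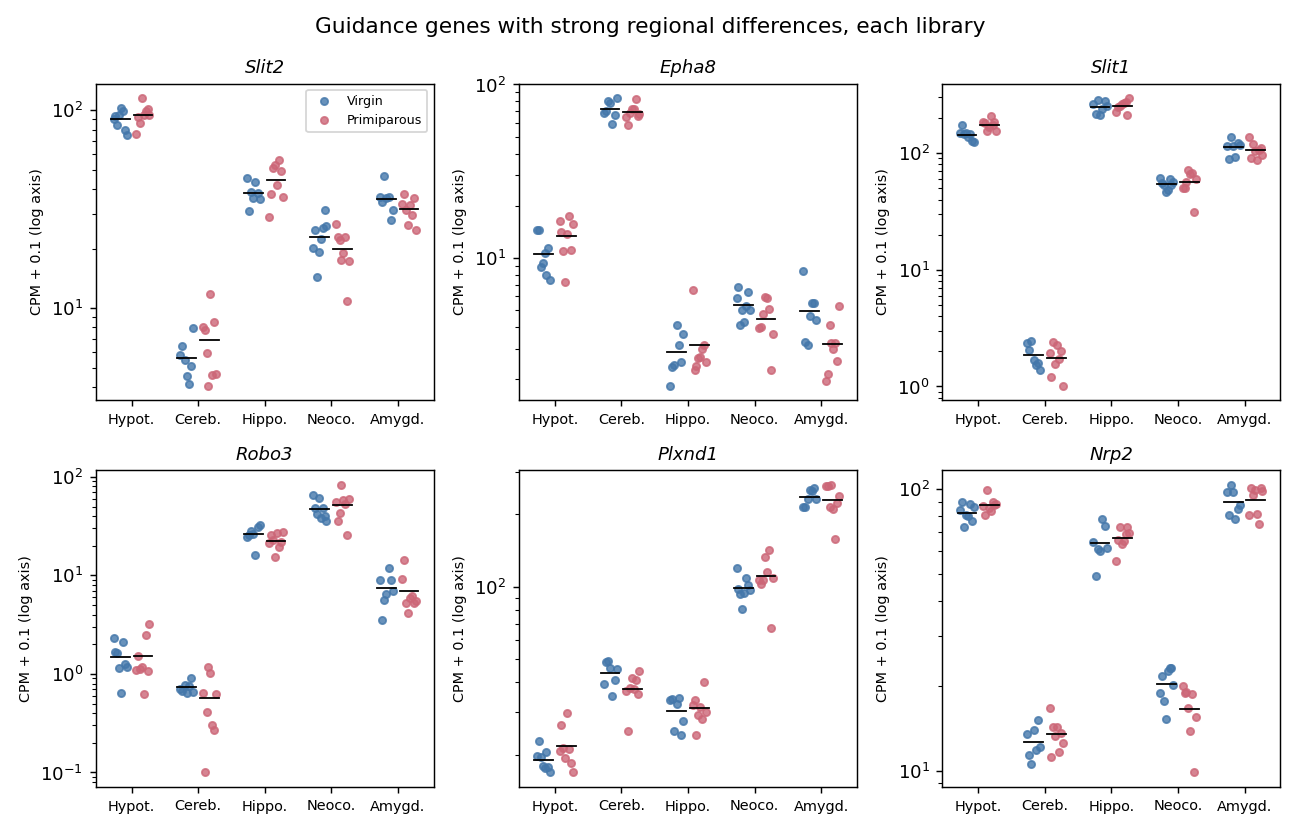
Levels of 6 guidance genes in every library. Each point is a library (blue, virgin; red, primiparous), black bars are group means, the horizontal axis gives the region and the vertical axis CPM + 0.1 on a log scale. Slit2 separates the hypothalamus, Epha8 the cerebellum and Plxnd1 the amygdala from all other regions, and Slit1 falls to 2.36 CPM or less in the cerebellum only.

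Netrin-1 (Ntn1), a secreted netrin, was highest in the cerebellum. It ranged from 91.3 to 145 CPM in the cerebellum (median 112) and from 26.2 to 42.4 in the hypothalamus (median 34.6), and did not exceed 24.9 in the other regions. The cerebellum stood 2.75 ± 0.05 above the other regions on the log2 scale (adjusted p = 1.08e-58, edgeR), and the neocortex 1.38 below them (SE 0.07). The neocortex and hippocampus, lowest in order, did not differ detectably (log2 difference, hippocampus over neocortex, -0.02 ± 0.09). The receptor Dcc, which mediates attraction to netrin-1, was lowest in the cerebellum. It ranged from 33.1 to 47.0 CPM in the hypothalamus and from 26.7 to 54.7 in the hippocampus, 2 regions that did not differ detectably (adjusted p = 0.862, edgeR), and from 2.46 to 6.92 in the cerebellum. The region with the highest Ntn1 level was thus that with the lowest Dcc level, whereas the hypothalamus was high and the neocortex low in both.

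Unc5 receptors, alone or with Dcc, mediate repulsion by netrin-1, and divided between the regions. Unc5b ranged from 95.8 to 142 CPM in the cerebellum (median 115) and did not exceed 50.2 elsewhere, a log2 difference of 1.91 ± 0.06. Unc5c was also highest in the cerebellum, with 82.7 ± 7.30 CPM (SD, n = 15), and lowest in the neocortex, with 27.2 ± 5.31 (n = 16). Unc5d ranged from 84.5 to 112 CPM in the amygdala (median 102) and from 83.6 to 114 in the hypothalamus (median 94.6), but did not exceed 55.8 in the other regions. Those 2 regions overlapped and differed by 0.17 ± 0.07 on the log2 scale. Their log2 differences from the other regions were 1.49 ± 0.05 and 1.27 ± 0.05. Unc5a was highest in the hippocampus (165 ± 18.7 CPM) and amygdala (154 ± 18.3), which did not differ detectably. The log2 ratio of Unc5c to Unc5d per kilobase changed sign across the brain, from 1.38 ± 0.24 (SD, n = 15) in the cerebellum to -2.13 ± 0.17 (n = 15) in the amygdala.

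The netrin-G genes encode membrane-anchored relatives of netrin that bind partners at synapses. Ntng1 was highest in the hypothalamus, with 55.9 ± 12.5 CPM (SD, n = 16). It did not differ detectably between the hippocampus (33.0 ± 3.76) and amygdala (31.7 ± 5.39). Ntng2 was at 33.6 ± 3.55 CPM in the hippocampus and 30.1 ± 5.59 in the amygdala, against 9.62 ± 2.30 in the hypothalamus. The log2 ratio of Ntng1 to Ntng2 per kilobase was 1.49 ± 0.56 in the hypothalamus and positive in all 16 libraries. In the hippocampus, neocortex and amygdala it was negative in every library, with means of -1.08 ± 0.25, -0.88 ± 0.44 and -0.97 ± 0.31. The 3 neocortex libraries poor in olfactory bulb markers had 20.3 to 22.2 CPM of Ntng1, below the 22.3 to 36.2 of the other 13.

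Of the 13 membrane semaphorins, 3 were called higher in the cerebellum, namely Sema4c, Sema4g and Sema7a, and 2 lower, Sema4a and Sema5b, where 7.55% of all genes were higher and 12.4% lower. Sema7a, a lipid-anchored semaphorin, was the most abundant member per kilobase in the cerebellum and neocortex, with 103 ± 7.38 CPM per kb (SD, n = 15) and 70.9 ± 8.54 (n = 16). It was lowest in the hypothalamus, at 16.4 CPM per kb. Sema4g ranged from 100.4 to 153 CPM in the cerebellum, above all other libraries, with a log2 difference of 1.69 ± 0.05 (adjusted p = 4.06e-44, edgeR). Sema3e, a secreted semaphorin that binds plexin-D1 without a neuropilin, ranged from 74.1 to 100.3 CPM in the hippocampus and did not exceed 43.4 elsewhere. Its log2 difference in the hippocampus was 2.31 ± 0.05.

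Plxnd1, the receptor for Sema3e, ranged from 157 to 266 CPM in the amygdala (median 232) and from 67.5 to 142 in the neocortex (median 105). It did not exceed 49.1 CPM in the cerebellum, 40.2 in the hippocampus or 29.8 in the hypothalamus. The amygdala lay above all other libraries, 2.61 ± 0.05 above the other regions on the log2 scale (adjusted p = 1.01e-55, edgeR), and the hypothalamus 1.96 below (SE 0.07). Markers of the striatum, the structure next to the amygdala, summed to between 273 and 635 CPM in amygdala libraries, 335 CPM at most in the other regions, and their part in the Plxnd1 level was not tested.

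Neuropilins are the co-receptors of class 3 semaphorins. Nrp1 ranged from 97.2 to 146 CPM in the hippocampus (median 125), above every other library, whereas Nrp2 ranged from 75 to 103 in the amygdala (median 95.2) and from 73.1 to 99.2 in the hypothalamus (median 85.8). The neocortex had only 9.74 to 23.0 CPM of Nrp2 (log2 difference -1.43 ± 0.06, adjusted p = 3.24e-37, edgeR). The amygdala differed from the hypothalamus in Nrp2 by 0.23 ± 0.06 on the log2 scale, and their ranges overlapped. Per kilobase, the log2 ratio of Nrp1 to Nrp2 was 1.2 ± 0.13 (SD, n = 15) in the hippocampus, 1.30 ± 0.30 (n = 16) in the neocortex and -1.34 ± 0.37 (n = 15) in the amygdala, with 1 sign in all libraries of each region.

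EphA receptors bind ephrin-A ligands, and 4 of the 7 members were called higher in the hippocampus and 1 lower, where 4.56% of all genes were higher and 3.41% lower. Epha4 ranged from 361 to 463 CPM there (median 409) and reached at most 210 elsewhere, and was the most abundant member per kilobase in that region, with 51.0 ± 4.37 CPM per kb. Its log2 difference was 2.45 ± 0.05 (adjusted p = 1.79e-57, edgeR). Epha6 ranged from 47.5 to 78.7 CPM in the hippocampus and did not exceed 45.2 elsewhere, a log2 difference of 2.5 ± 0.07. Epha7 ranged from 143 to 216 CPM there and reached at most 99.1 elsewhere. Epha5 was called in the same direction, with a log2 difference of 1.19 ± 0.04. Epha3 and Epha10 were not called there. Epha8 ranged from 58.6 to 83.5 CPM in the cerebellum (median 68.5), from 7.19 to 17.3 in the hypothalamus and no higher than 8.30 elsewhere. Its log2 difference was 3.72 ± 0.08 in the cerebellum (adjusted p = 2.89e-54, edgeR), -1.85 ± 0.12 in the hippocampus and -1.34 ± 0.12 in the amygdala. In the hippocampus library rich in cerebellum markers Epha8 was 6.44 CPM, while the other libraries reached at most 4.01. Without that library the Epha8 calls stood. The ligand Efna5 had 36.2 to 55.7 CPM in the neocortex and 36.1 to 46.4 in the hypothalamus, 2 overlapping ranges, and 5.66 to 11.8 in the hippocampus, where those 4 EphA receptors were high. Its log2 differences were 1.48 ± 0.05, 1.27 ± 0.05 and -1.52 ± 0.06.

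EphB receptors, the partners of ephrin-B ligands, did not share a region. Ephb6, which lacks kinase activity, ranged from 139 to 178 CPM in the neocortex (median 159) and reached at most 92.4 elsewhere (log2 difference 1.79 ± 0.04, adjusted p = 1.79e-52, edgeR). Ephb3 was also highest there, at 29.8 to 43.8 CPM (log2 difference 1.43 ± 0.05), and its hippocampus libraries reached 29.3. Ephb2 ranged from 53.6 to 74.2 CPM in the cerebellum and from 7.94 to 14.1 in the amygdala, below all other regions (log2 difference in the amygdala -1.42 ± 0.06). The ephrin-B genes did not pass the limit in the hypothalamus, hippocampus, neocortex or amygdala. Efnb3 was the most abundant member per kilobase in the hypothalamus, at 51.9 ± 5.72 CPM per kb (SD, n = 16). Across all members, the highest region differed from the next in order for 45 of 63 genes at an adjusted p under 0.05 (edgeR), against 63.2% of all genes, and at least 2-fold for 11, against 8.15% of all genes.

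In all, 43 of 63 members were called in at least 1 region, as were 27.1% of all genes. The 20 others were Efna1, Efna2, Efnb1, Efnb2, Ephb1, Ephb4, Plxna1, Plxna2, Plxnb3, Robo4, Sema3c, Sema3d, Sema3g, Sema4b, Sema4d, Sema4f, Sema6a, Sema6b, Sema6c and Unc50. Of the other A-type plexins, Plxna4 was called higher in the hippocampus, with 249 CPM on average against 138 or less elsewhere, and Plxna3 in the hypothalamus. Plxnb2 was called higher in the cerebellum. Sema5b, Sema4a and Efna3 were called lower in the cerebellum, with mean levels of 5.43 CPM for Sema5b and 4.76 for Efna3. Sema6d, a ligand of plexin-A1, was called lower in the neocortex (52.3 CPM on average against 160 in the cerebellum), as were Sema3b and Sema5a. Sema3b, at -1.003 ± 0.23, was at the 2-fold limit, and its levels spread from 1.22 to 14.4 CPM in the hippocampus and from 2.31 to 19.2 in the cerebellum, against 1.62 to 3.92 in the neocortex. Markers of the choroid plexus summed to between 62.96 and 3935 CPM in hippocampus, 34.9 and 3605 in cerebellum and 11.6 and 95.7 in neocortex libraries, and their part in the Sema3b levels was not tested. Some genes share exonic bases with another gene. Reads from such bases fit either gene by position. This holds for Plxna1 with Gm26811 (970 shared bases, opposite strands), Sema4c with D430040D24Rik (334, opposite) and Ntng2 with 6530402F18Rik (558, same strand). Overlaps of 33 to 344 bases affect Epha6, Epha10, Ephb1, Ephb4, Efna3, Plxna4, Unc5a, Unc5c, Nrp1 and Sema4a. Whether reads were counted by strand, or counted at all where genes overlap, is not given in the sources used here.

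The second question was whether guidance genes differed between primiparous and virgin females. In the hypothalamus 20 of 63 members were called at an adjusted p under 0.05 (same test and adjustment, within the region), where 22.6% of all genes were called. Of these, 12 were higher and 8 lower in primiparous females, against 10.8% and 11.8% of all genes. None of the 20 was called once gene length and GC content, or the series of animal numbers, entered the model. In 1 fit of all 10 groups 8 members and 2189 of all genes were called, and leaving out 1 library gave between 12 (without primiparous animal 414) and 25. Over all genes the count was 2939 with every library and 2063 without animal 414. It lay between 2014 and 4119 over the libraries left out. The log2 fold changes of the 20 members lay between -0.43 and 0.33. No member separated the groups in full: the CPM ranges of the states overlapped for all 63, while 0.884% of all genes had ranges apart. The same held in the other regions, where ranges were apart for 0.323% of all genes for the cerebellum, 0.0845% for the hippocampus, 0.0154% for the neocortex and 0.146% for the amygdala. By family, 3 of 7 plexins, 3 of 13 membrane semaphorins, 2 of 3 ephrin-B genes, 2 of 5 Dcc and Unc5 genes, 1 of 3 Slits and 1 of 5 EphB receptors were higher. By the same count, 2 of 7 EphA receptors, 2 of 6 class 3 semaphorins, 2 of 5 Dcc and Unc5 genes, 1 of 13 membrane semaphorins and 1 of 2 netrin-G genes were lower. No Robo, ephrin-A or neuropilin gene was called with edgeR, while DESeq2 called Robo2 lower (log2 fold change -0.19, adjusted p = 0.0400, against 0.0505 with edgeR). The median log2 fold change was 0.07 over the members and 0.01 over all genes.

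**Figure D3:**
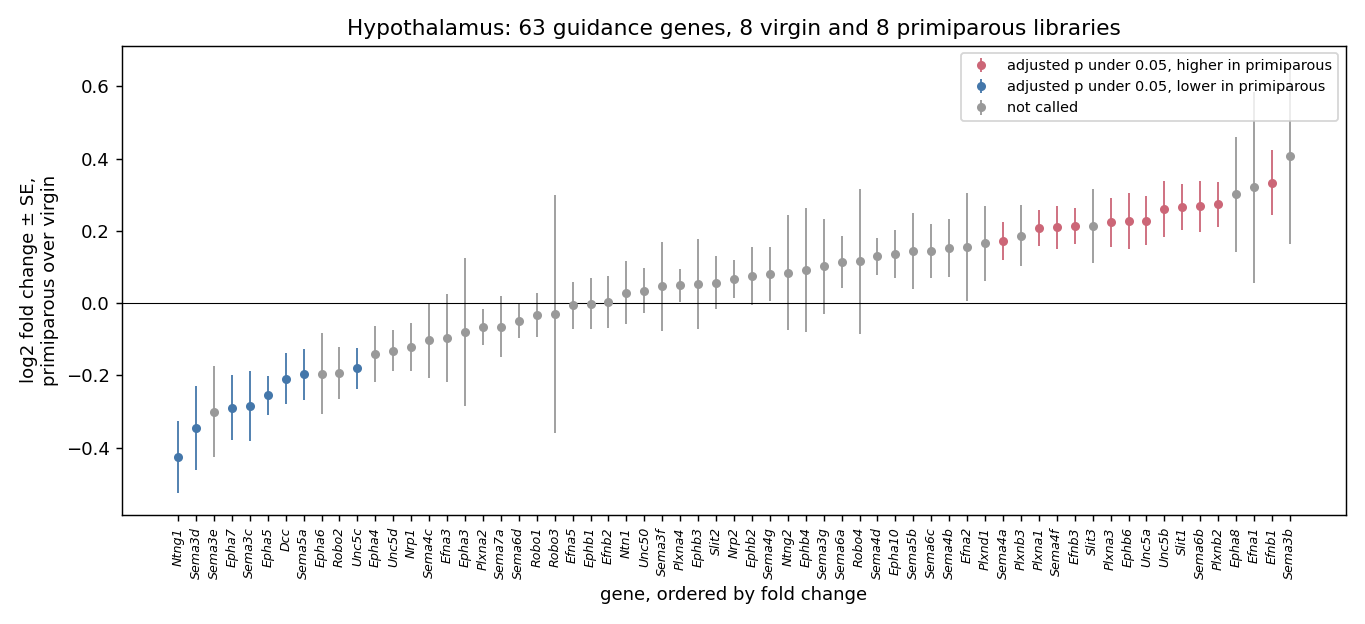
Log2 fold change, primiparous over virgin, of the 63 genes in the hypothalamus, with the standard error of the fit as bars. The genes are ordered along the horizontal axis. Red and blue points are the 12 higher and 8 lower genes with an adjusted p under 0.05, and grey points are the other 43, some of which lie further from 0 but have wider bars.

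Ntng1, the netrin-G gene of highest level in this region, had the largest decrease. It ranged from 52.6 to 89.3 CPM in virgin females (median 61.6) and from 38.7 to 59.9 in primiparous females (median 49.6). All 8 primiparous libraries lay below the virgin mean, and 6 lay below every virgin library. The log2 fold change was -0.43 ± 0.10 (adjusted p = 0.00552, edgeR). The highest value, 89.3 CPM, came from virgin animal 4490, which also had the most thalamus marker RNA of the 16 libraries, with 60.8 CPM of Tcf7l2 and 82.2 of Prkcd, against at most 38.3 and 29.2 elsewhere. Without that library the fold change was -0.34 (adjusted p = 0.014, edgeR). Summed over the list of 6 thalamus markers, virgin libraries had 421 to 611 CPM and primiparous libraries 336 to 410, without overlap. Slc17a6 made up most of that sum, with 343 to 435 and 277 to 356 CPM, and the other 5 markers together overlapped between states, with 52.4 to 176 CPM in virgin and 47.1 to 82.9 in primiparous libraries. Of the 5 that could be tested, the only one called was Slc17a6 (log2 fold change -0.38 ± 0.06), where 22.6% of all genes were called. Hypothalamic neurons also express this vesicular glutamate transporter. Prkcd and Tcf7l2 had larger but more variable fold changes of -0.58 ± 0.35 and -0.50 ± 0.27 (adjusted p = 0.243 and 0.19, edgeR). Lef1 went the other way, with 0.19 ± 0.20, and Rora had -0.08 ± 0.11, neither of them called. The part of thalamus RNA in the Ntng1 difference was not tested.

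The other 7 lower members were secreted semaphorins, receptors and Sema5a. Sema3d ranged from 12.1 to 17.3 CPM in virgin and from 8.87 to 16.3 in primiparous females, a log2 fold change of -0.35 ± 0.12 (adjusted p = 0.0363, edgeR). Sema3c ranged from 31.7 to 53.0 and from 28.0 to 40.4 CPM, with a fold change of -0.28 ± 0.10. Of the 8 primiparous libraries, 7 lay below the virgin mean for Sema3d and 8 for Sema3c. Only 6 and 3, in that order, lay below every virgin library, and the ranges overlapped in both genes. Epha5, which had the smallest p of all members, ranged from 93.2 to 120.1 CPM in virgin (median 103) and from 82.1 to 97.6 in primiparous females (median 89.1). All but 1 of the primiparous libraries fell below the virgin range. Its log2 fold change was -0.26 ± 0.05 (adjusted p = 0.00329, edgeR). Epha7 ranged from 26.8 to 34.0 CPM in virgin and from 19.4 to 35.7 in primiparous females (log2 fold change -0.29 ± 0.09), where 7 libraries lay below the virgin range and that of animal 4493 above it. The netrin-1 receptors Dcc and Unc5c had log2 fold changes of -0.21 ± 0.07 and -0.18 ± 0.06. Sema5a, a membrane semaphorin with thrombospondin repeats, had the smallest margin, with -0.20 ± 0.07 and an adjusted p of 0.0482 (edgeR).

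The 12 higher members included ephrins, a Slit and plexins. Efnb1, an ephrin-B ligand, ranged from 16.4 to 22.4 CPM in virgin (median 19.2) and from 19.2 to 30.3 in primiparous females (median 25). Of the 8 primiparous libraries 6 exceeded every virgin library. Its log2 fold change, 0.33 ± 0.09, was the largest among the called increases (adjusted p = 0.0116, edgeR). Efnb3 ranged from 144 to 168 CPM in virgin and from 165 to 208 in primiparous females, with all 8 primiparous libraries above the virgin mean (log2 fold change 0.21 ± 0.05, adjusted p = 0.00529). Slit1 ranged from 124 to 173 CPM and from 154 to 207 CPM (medians 145 and 176), again with all 8 above the virgin mean and 4 above every virgin library. The log2 fold change of Slit1 was 0.27 ± 0.06 (adjusted p = 0.00639, edgeR). Markers of the hippocampus, where Slit1 was highest, summed to 141 to 181 CPM in virgin and 151 to 208 in primiparous hypothalamus libraries. Of these markers 2 of 6 were called higher, beside 10.8% of all genes. Markers of the striatum summed to 246 to 267 and 265 to 294 CPM, with 0 of 7 called, beside 22.6% of all genes. The part of either set of markers in these differences was not tested.

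Plexins are the semaphorin receptors, and all 3 that were called, Plxnb2, Plxna1 and Plxna3, were higher. Plxnb2 ranged from 110.4 to 169 CPM in virgin and from 153 to 176 in primiparous females, with a log2 fold change of 0.27 ± 0.06 (adjusted p = 0.00489, edgeR). The wide virgin range overlapped the narrow primiparous one, and 2 primiparous libraries exceeded it. Plxna1 and Plxna3 had fold changes of 0.21 ± 0.05 and 0.22 ± 0.07. Of the membrane semaphorins, Sema6b had 0.27 ± 0.07, Sema4f 0.21 ± 0.06 and Sema4a 0.17 ± 0.05. The netrin receptors Unc5b and Unc5a were higher by 0.26 ± 0.08 and 0.23 ± 0.07, in the direction opposite to Unc5c and Dcc. The receptor Ephb6 was higher by 0.23 ± 0.08. Slit2, the gene that set the hypothalamus apart from the other regions, had a log2 fold change of 0.06 ± 0.07 and was not called.

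**Figure D4:**
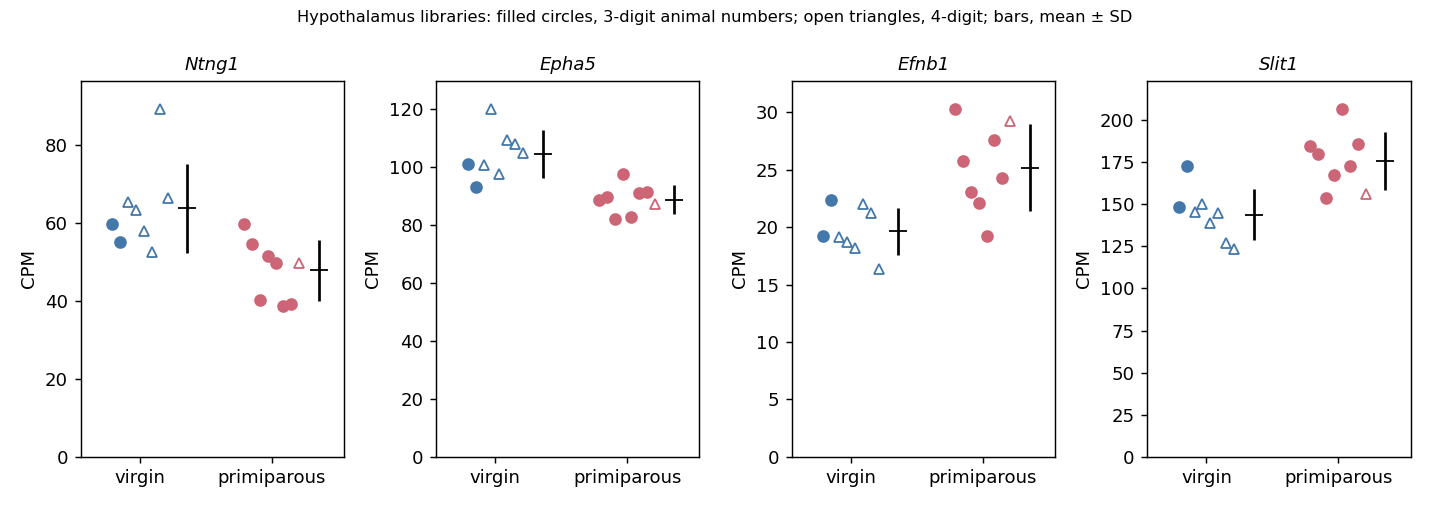
Levels of Ntng1, Epha5, Efnb1 and Slit1 in the 16 hypothalamus libraries. Each point is a library, with state on the horizontal axis, CPM on the vertical axis, and the mean ± SD of 8 libraries as a black bar. Filled circles are animals with 3-digit and open triangles animals with 4-digit numbers. The ranges of the states overlap for each gene, and the 2 states hold different mixtures of number series.

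The direction of the called genes followed their base composition. GC content is here that of the longest annotated transcript of a gene. All 8 lower members had a GC content between 39.2% and 46.5%, and all 12 higher members one between 55.0% and 63.5%. Genome-wide the split was in the same direction but not complete: genes that were lower had a median GC content of 42.2%, and genes that were higher one of 56.6%, and 95 higher genes lay under 50% GC and 33 lower genes at or above it. Members under 50% GC had a median log2 fold change of -0.16 in the hypothalamus, and members at or above 50% a median of 0.14. In the neocortex, where no member was called, the medians were -0.15 and 0.15. In the cerebellum they were 0.04 and -0.05, in the hippocampus 0.06 and 0.01, and in the amygdala 0.01 and -0.08. When the trend of each library with gene length and GC content was removed as an offset, 0 members were called, while 393 of all genes were. At an unadjusted p under 0.05 there were 10 of 63 members and 2349 of all 13016 genes (edgeR). All 20 kept their sign, and the median size of their fold changes went from 0.24 to 0.09. Ntng1 retained the most, with -0.34 (adjusted p = 0.118, edgeR).

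**Figure D5:**
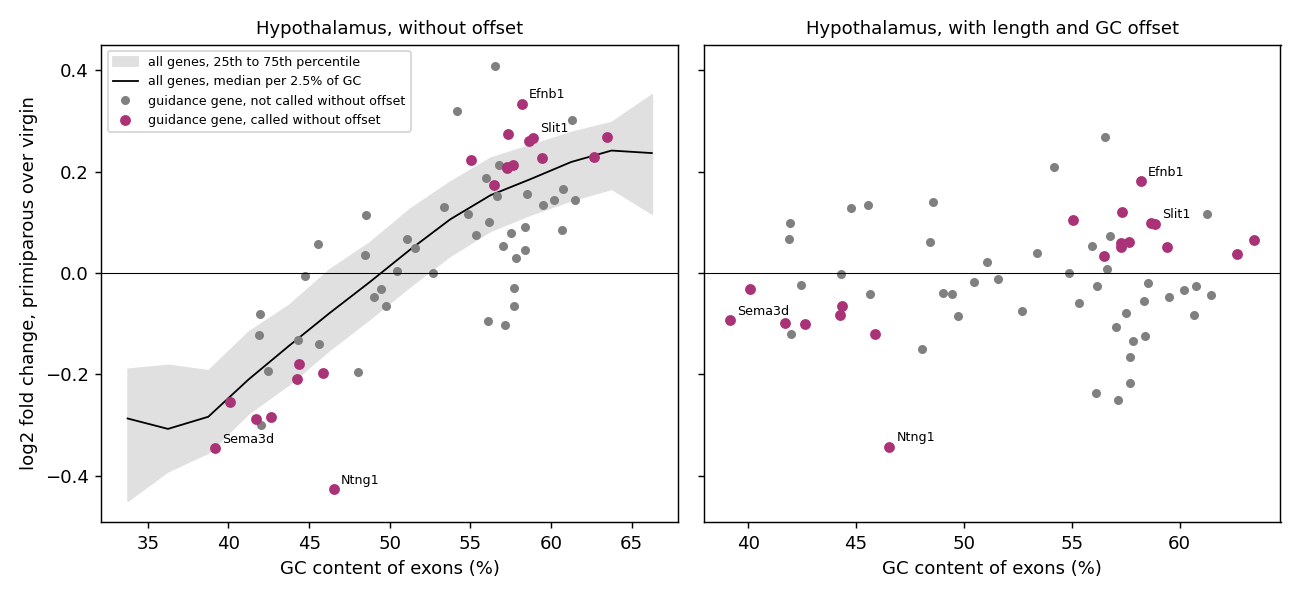
Log2 fold change in the hypothalamus against the GC content of the longest transcript, before (left) and after (right) the length and GC offset. Points are the 63 genes, purple where called without the offset. On the left the black line and grey band give the median and the 25th to 75th percentiles of all genes per 2.5% of GC. The called genes lie on the same side of 0 as the line, Ntng1 lowest, and are nearer to 0 on the right.

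With a term for the number series in the model 0 members were called, and 3 of all genes were. At an unadjusted p under 0.05 there were 9 of 63 members and 1907 of all 13016 genes (edgeR). Since the 20 genes were chosen on the pooled libraries, values within each series are descriptions. Within the 3-digit series, of 2 virgin and 7 primiparous females, their median size was 0.14 on the log2 scale, against 0.24 pooled, and Unc5b was at 0.01. Within the 4-digit series, of 6 virgin females and 1 primiparous female, it was 0.18, and Sema3d and Epha7 had the other sign. Voom with limma called 18 members (19.8% of all genes) and DESeq2 called 22 (25.6% of all genes).

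In the cerebellum 0 members were called with edgeR, where 0.707% of all genes were, and 12 had an unadjusted p under 0.05, as did 19.5% of all genes. The smallest p belonged to Unc5b, the repulsive netrin receptor that marks this region. It ranged from 114 to 142 CPM in virgin and from 95.8 to 122 in primiparous females, a log2 fold change of -0.20 ± 0.06 (adjusted p = 0.0862). All 8 primiparous libraries lay below the virgin mean. Ephb4, the ephrin-B2 receptor known from veins, ranged from 7.70 to 9.54 and from 7.98 to 12.7 CPM (log2 fold change 0.33 ± 0.10, adjusted p = 0.104, edgeR). DESeq2 called Unc5b alone. The length and GC offset called Unc5b, Plxnb2 and Plxna1. Counts over all genes under these settings are not given here, so the calls are not read against them.

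In the amygdala 0 members were called with edgeR, as was 0.0% of all genes, and 8 had an unadjusted p under 0.05, as did 11.9% of all genes. Sema6b, a membrane semaphorin, ranged from 191 to 215 CPM in virgin and from 136 to 202 in primiparous females, 7 of which lay below the virgin range (log2 fold change -0.28 ± 0.07, adjusted p = 0.167). Sema6c ranged from 12.5 to 21.4 and from 9.83 to 14.7 CPM (-0.42 ± 0.12, adjusted p = 0.213, edgeR). DESeq2 called Sema6b alone, and its count over all genes in this region is not given here.

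In the hippocampus 0 members were called with edgeR, with 0.0% of all genes called and 4 members, beside 7.38% of all genes, at an unadjusted p under 0.05. Dcc ranged from 26.7 to 37.3 CPM in virgin and from 27.4 to 54.7 in primiparous females (log2 fold change 0.32 ± 0.12, adjusted p = 0.615). Epha10, a kinase-inactive Eph receptor, had a fold change of -0.17 ± 0.07 (adjusted p = 0.621, edgeR). In the neocortex 0 members were called, with 0.0% of all genes called and 13 members, beside 9.80% of all genes, at an unadjusted p under 0.05. Sema3f, a neuropilin-2 ligand, and Ntng2 had the smallest p, with log2 fold changes of 0.37 ± 0.13 and 0.34 ± 0.12 (both adjusted p = 0.479, edgeR). Their ranges overlapped between states. DESeq2 and voom called no member in either region.

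Whether the state difference itself differed between the hypothalamus and another region was tested by an interaction term. These 4 tests share the hypothalamus libraries. Against the cerebellum 13 members were called (15.5% of all genes), against the hippocampus 11 (17.2%), against the amygdala 13 (18.2%) and against the neocortex 0 (0.0%, with 4 members and 2.58% of all genes at an unadjusted p under 0.05, edgeR). In 1 fit of all 10 groups the first 3 counts were 7 (10.1% of all genes), 1 (5.11%) and 8 (19.3%), in that order. Among the genes called in the hypothalamus, Sema3d differed against 3 regions, its log2 fold change being -0.35 there and 0.27, 0.15 and 0.36 in the cerebellum, hippocampus and amygdala. Dcc was lower by 0.21 in the hypothalamus and had a fold change of 0.32 in the hippocampus, a difference of -0.54 ± 0.13 (adjusted p = 0.00723, edgeR). Plxnb2 had 0.27 in the hypothalamus and -0.22 in the cerebellum, a difference of 0.49 ± 0.10 (adjusted p = 0.00199). Sema6b had 0.27 in the hypothalamus and -0.28 in the amygdala, a difference of 0.55 ± 0.11 (adjusted p = 0.00104). With the animal as a replicate block the called members numbered 9 against the cerebellum (11.5% of all genes), 6 against the hippocampus (11.1%) and 9 against the amygdala (14%). With the block and the length and GC offset they numbered 3 (3.96%), 0 (0.538%) and 0 (0.791%), the latter with 2 and 3 members at an unadjusted p under 0.05 (edgeR). The count of all genes at that unadjusted level is not given here.

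Other genes of guidance signalling were described from lists of co-receptors and other cues, kinases and adaptors, and cytoskeletal effectors. In the list of co-receptors and other cues, 2 of 20 were higher and 4 lower in the hypothalamus of primiparous females, where 10.8% of all genes were higher and 11.8% lower. Rtn4, the myelin-associated growth inhibitor Nogo, went from 622 ± 34.4 to 533 ± 57.4 CPM (SD, n = 8 each), a log2 fold change of -0.25 ± 0.06 (adjusted p = 0.00522, edgeR), and the adhesion molecule Chl1 had -0.29 ± 0.07. Lrrc4b, a netrin-G ligand family member, and the axonal adhesion protein Cntn2 had 0.25 ± 0.07 and 0.13 ± 0.05.

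Of 19 kinases and adaptors 2 were higher and 5 lower, beside 10.8% and 11.8% of all genes. The p21-activated kinase Pak3 went from 369 ± 38.7 to 294 ± 37.0 CPM (log2 fold change -0.35 ± 0.07, adjusted p = 0.0031, edgeR). The adaptors Nck1 and Nck2, which link receptors to actin, had opposite fold changes of -0.35 ± 0.09 and 0.31 ± 0.11, and the kinase Src had 0.19 ± 0.06. Of 17 cytoskeletal genes 5 were higher and 0 lower, beside the same 10.8% and 11.8% of all genes, and the list was not tested as a set. The smallest p belonged to Myl9, a myosin light chain, with a log2 fold change of 0.52 ± 0.13, and Crmp1, a mediator of semaphorin-3A signalling, with 0.18 ± 0.05. Myl9 is also expressed in the muscle cells of vessels, and markers of mural cells summed to 63.2 to 96.7 CPM in virgin and 66.0 to 106 in primiparous libraries, with 2 of 4 tested called higher. Their part in the Myl9 difference was not tested. With the length and GC offset Rtn4 was the only gene of these lists called, and with the term for number series 0 were. In the other 4 regions no gene of these lists was called.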

How the data were processed

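Poly(A) RNA from 5 brain regions of 8 virgin and 8 primiparous mice was sequenced by the authors as single 100-base reads on an Illumina platform, aligned with HISAT2 to mm10 and assigned to genes with featureCounts. Versions and the strand setting are not given in the sources used here. The deposited count table holds raw counts of 27179 genes in 77 libraries, with totals from 7959192 to 37871854. 3 further libraries were not analysed here. The deposited log2 table holds 13016 genes, those with at least 5 CPM in at least 8 libraries. Its values equal log2(count / size factor + 4), with median-of-ratios size factors, to within 5.0e-05, and served as an alternative.

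Counts were tested with edgeR 4.0.16 (R 4.3.3; TMM factors, robust quasi-likelihood F-test, Benjamini-Hochberg adjustment over 13016 genes). State was tested within each region, and regions in 1 fit of 10 groups, each against the mean of the other 4, with a call at an adjusted p under 0.05 and 2-fold. Interactions used the 4 groups of 2 regions. SE is that of the fitted log2 value. Alternatives were voom (limma 3.58.1), DESeq2 1.42.0, other size factors and filters, log2 values, an offset for exon length and GC content (values for 97.2% of genes), the series of animal numbers and leaving out each library in turn for the state comparisons within a region. For the regional comparisons only the hippocampus library of animal 413 was left out, and for the interactions none. The animal as a replicate block was an alternative for both. Scripts were tested on simulated data.

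The members, gene lists and tests were chosen with earlier results of these data known. Genes were picked for fuller description by a rule, and not every statistic was printed for each. Per region these were the 4 called members with the largest increase and the 2 with the largest decrease. Between states they were up to 10 members called in each direction in the hypothalamus, and the 2 of smallest p where none was called. Of the other pathway genes they were the 2 of smallest p per direction and list. All members could be named by level. No 2 libraries of a group were alike (smallest chi-square per degree of freedom 3.03). Animal numbers link the regions of 1 animal. The deviations of such libraries from their group means had median correlations of -0.01 to 0.10 over 10 pairs of regions. 1 list of other pathway genes is not reported here.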

Additional observations from a re-analysis of the deposited data

Results flagged for a closer look

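Of 56 groups of libraries examined, 5 held a library far from the others, and chance flags about 1 in 20 groups. In the hypothalamus, these were Ntng1 in virgin animal 4490 (89.3 CPM), Sema6b in virgin animal 409 (142 CPM), Sema4a in virgin animal 409 (89.97 CPM) and Epha7 in primiparous animal 4493 (35.7 CPM). In the amygdala it was Sema6c in virgin animal 405 (21.4 CPM).

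The difference between states in the hypothalamus differed from that in another region, by the test of the interaction, for the following members named above. These tests did not use the animal as a replicate block, with which fewer members were called, as given at the end of the next section. Values are differences of log2 fold changes, hypothalamus minus the other region. Against the cerebellum they were -0.63 for Sema3d, -0.41 for Ntng1 and -0.31 for Epha5. For receptors they were 0.55 for Plxna3, 0.49 for Plxnb2, 0.45 for Plxna1, 0.45 for Unc5b and 0.38 for Unc5a, and for Sema4f 0.36. Against the hippocampus they were -0.54 for Dcc, -0.50 for Sema3d, -0.41 for Ntng1, -0.36 for Sema3c, -0.29 for Epha5 and -0.28 for Unc5c, with positive values of 0.31 for Sema6b and 0.21 for Efnb3. Against the amygdala they were -0.70 for Sema3d and -0.41 for Dcc. Positive values there were 0.55 for Sema6b, 0.39 for Ephb6, 0.36 for Efnb3, 0.34 for Slit1, 0.34 for Unc5a, 0.31 for Sema4a, 0.30 for Sema4f and 0.26 for Plxnb2.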

How the results depend on the processing

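In the hypothalamus, where 20 members were called between states, 0 were with a term for the number series, 0 with the length and GC offset and 8 in 1 fit of all 10 groups. Leaving out 1 library gave 12 to 25 (12 without primiparous animal 414, 13 without primiparous animal 421 and 13 without virgin animal 4487). Over all genes 2939 were called with every library, and 2063, 2081 and 2061 without those animals, in that order. The term for number series gave 3 of all genes, the length and GC offset 393 and 1 fit of all 10 groups 2189. In the cerebellum DESeq2 called 1 and the length and GC offset 3, and leaving out 1 library gave 0 to 2 (2, Plxna2 and Unc5b, without primiparous animal 4493). In the amygdala DESeq2 called 1 and 1 fit of all 10 groups called 2, Sema6b and Sema6c, and leaving out 1 library gave 0 to 1 (Sema6b, without primiparous animal 413). For the cerebellum and amygdala, counts over all genes under these settings are not given here, so the calls are not read against them. Interaction counts in 1 fit of all 10 groups were 7 against the cerebellum (10.1% of all genes), 1 against the hippocampus (5.11%) and 8 against the amygdala (19.3%). The cause of these shifts was not tested. The 20 called members kept their direction under these settings, while other members did not all do so (Nrp1 went from -0.12 to 0.07 with the length and GC offset). Within the 4-digit series, which holds 1 primiparous female, Sema3d and Epha7 of the 20 reversed (log2 ratios 0.14 and 0.19). Regional counts stayed within 1.5 times, with 14 rather than 15 for the neocortex without the hippocampus library of animal 413.

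With the animal as replicate block, interaction calls numbered 9 against the cerebellum, 6 against the hippocampus, 0 against the neocortex and 9 against the amygdala. The shares of all genes were 11.5%, 11.1%, 0% and 14%, in that order. With the replicate block and the length and GC offset together the calls numbered 3, 0, 0 and 0, beside 3.96%, 0.538%, 0% and 0.791% of all genes. No paired analysis was possible within a region because virgin and primiparous females are different animals that share no number.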
